A study of Mus musculus with 12 samples.

Results

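The genes described here were 10 that carry out or control de novo lipogenesis, the making of fatty acids and triglyceride from sugar carbon. They were chosen by name as rows of the liver count table: Acly, Me1, Acaca, Acacb, Fasn, Gpam, Dgat2, Srebf1, Mlxipl and Thrsp. They are 10 of the 24527 gene symbols in that table. Messenger RNA was sequenced from the livers of 12 mice aged 39 weeks. All animals were offspring of CF1 females and B6SJL males and arose from natural mating or from IVF (fertilization of eggs in a dish). Per the labels, the IVF animals were made with a protocol of the Jackson Laboratory. The 4 groups were IVF females, natural females, IVF males and natural males, with 3 libraries each. The design asks whether the mode of conception was followed by a difference in the adult liver, and whether that difference depended on sex. IVF female replicate 1 and IVF male replicate 2 carry titles with the same leading number, whose meaning the labels do not give. The labels do not say which animals were litter mates, so p-values measure the spread between these libraries only.

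In the liver, surplus glucose is turned into citrate in mitochondria, exported, and cleaved in the cytosol to acetyl-CoA. Acetyl-CoA carboxylase makes malonyl-CoA from it, fatty acid synthase builds palmitate with reducing power from NADPH, and acyltransferases attach the fatty acids to glycerol to form triglyceride. The genes are switched on together after feeding by a pair of transcription factors. SREBP-1c, a product of Srebf1, carries the insulin signal, and ChREBP, encoded by Mlxipl, carries the sugar signal. Both act through short DNA elements of their target genes.

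The promoters of Fasn and Mlxipl are shown. Fasn followed Srebf1 most closely across libraries. Of the 10 genes, only Mlxipl had IVF and natural libraries that separated in opposite directions in the 2 sexes. The sequences are the 250 bases before the RefSeq start site in GRCm38.p6, written 5′ to 3′ on the strand of the gene. Capitals mark CCAAT boxes (CCAAT or its complement ATTGG), the element of nuclear factor Y, and the E-box CACGTG, an element of the USF family. Fasn lies at chr11:120824548-120824797 on the minus strand, and Mlxipl at chr5:135089640-135089889 on the plus strand, at the more upstream of its 2 RefSeq starts. The window of the downstream Mlxipl start, chr5:135106641-135106890, is not printed. Counts per gene do not tell transcripts of the 2 starts apart.
Fasn: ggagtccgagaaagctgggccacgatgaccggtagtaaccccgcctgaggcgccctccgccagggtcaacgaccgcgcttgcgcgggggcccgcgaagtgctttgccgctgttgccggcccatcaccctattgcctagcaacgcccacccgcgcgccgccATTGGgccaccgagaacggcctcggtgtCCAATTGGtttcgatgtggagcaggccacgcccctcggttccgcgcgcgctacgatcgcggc
Mlxipl: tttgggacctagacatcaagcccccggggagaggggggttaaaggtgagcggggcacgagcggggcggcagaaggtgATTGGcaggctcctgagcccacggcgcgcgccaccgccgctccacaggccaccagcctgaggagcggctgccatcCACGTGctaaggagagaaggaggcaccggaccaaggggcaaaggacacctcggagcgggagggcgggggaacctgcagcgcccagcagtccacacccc
The Fasn window holds CCAAT boxes at positions -90, -62 and -59 from the start, of which the last 2 overlap. The Mlxipl window holds an E-box at -98 and a CCAAT box at -173. RefSeq windows were found for 9 of the 10 genes. On either strand, a CCAAT box stood in 8 of their 14 windows, which belong to 7 genes, against 33.8% of all 32851 promoter windows of this length. The GC box GGGCGG stood in 6 of the 14, of 5 genes, and in 32.7% of all windows. The E-box occurred in Mlxipl alone among the 9 and in 6.02% of all windows. The sterol element TCACNCCAC, a form of the SREBP site, occurred at -136 of the downstream Mlxipl start and in 1.05% of all windows. Such matches are letters in these windows and say nothing of binding or of elements outside the windows.

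Libraries held 6826534 to 27832271 counts. IVF female replicate 1 (6826534) and natural female replicate 2 (8056230) were the shallowest, and the next held 14002847. Levels are in CPM, counts relative to the library's total, after TMM scaling, which adjusts for composition. Natural female replicate 2 had the lowest level of 12 for 5 of the 10 genes, and natural female replicates 1 and 2 were each among the 3 lowest for 7. The sum over the 10 genes ran from 864 CPM in natural female replicate 2 to 2316 CPM in natural male replicate 3. The same natural females stood apart in some genes of the circadian clock. Arntl, the clock's activator, was at 15.5 and 22.2 CPM in natural female replicates 1 and 2 and at 2.10 to 6.69 CPM in the other 10 libraries. Per1, which the activator drives in the opposite phase, was at 3.13 and 4.55 CPM there and at 10.0 to 60.4 CPM elsewhere. Some other clock genes did not set these libraries apart. Nr1d1 was at 97.8 and 88.2 CPM there and at 51.9 to 137 CPM elsewhere. Cry1 was at 12.3 and 18.8 CPM there and at 6.20 to 19.9 CPM elsewhere. The hour of collection and the feeding state are not given in the sources used here. The 6 hepatocyte markers summed to 79642 to 119638 CPM. Of 7 adipocyte markers, which could bring lipogenic messages from attached fat, Lep and Retn were at 0 in every library, 6 were under 1 CPM in every library, and the sum was 2.49 to 7.39 CPM.

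No difference between IVF and natural livers passed the test for any of the 10 genes in either sex. All 10 passed the filter on low counts, and each was tested with edgeR's quasi-likelihood test among 13204 genes with Benjamini-Hochberg adjustment, a gene being called at an adjusted p under 0.05. In females 0 of 10 were called, where the share over all genes was 0.0%, and the adjusted p was 1 for each. At an unadjusted p under 0.05 there were 3 of the 10 (Thrsp, Mlxipl and Acly), against 3.7% of all genes. The log2 fold change, IVF over natural, was above 0 for 7 genes, with a median of 0.28, against -0.01 over all genes tested. The median of the 10 genes was 0.07 without the 2 shallow libraries or without natural female replicate 2, and 0.59 without natural female replicate 3. In males 0 of 10 were called, where the share over all genes was 0.00757%, again with an adjusted p of 1 for each. At an unadjusted p under 0.05 there were 2 (Me1 and Mlxipl), against 2.69% of all genes. The median in males was -0.10, with 2 genes above 0, against 0.01 over all genes. It ran from -0.28 without IVF male replicate 2 to 0.02 without natural male replicate 3, and was 0.04 with scaling by library size alone. DESeq2, which called 0.0303% of all genes in females and 0.0379% in males, and limma voom called 0 of the 10 in either sex.

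The IVF effect was not shown to differ between the sexes for any of the 10 genes. The interaction, the log2 fold change in males minus that in females, was called by edgeR for 0 of 10 genes, where the share over all genes was 0.0%. DESeq2, with 0.0682% of all genes called, and voom called 0 of the 10 as well. An unadjusted p under 0.05 was found for 3 of the 10 (Mlxipl, Thrsp and Me1), against 3.87% of all genes. The interaction was below 0 for 8 of the 10, with a median of -0.57, against 0.03 over all genes. That median was -0.23 without the shallow libraries, and from -0.22 (without natural female replicate 2) to -0.74 (without natural male replicate 2) on leaving out 1 library.

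Between males and females, edgeR called 0 of the 10 after natural conception, where 1.77% of all genes were called, and 0 after IVF, where 2.19% were called. DESeq2 called 1 of the 10 in natural livers (Mlxipl), against 5.13% of all genes, and 0 after IVF, against 5.46%, and voom called 0 in both. In natural livers 4 of the 10 (Mlxipl, Thrsp, Acly and Gpam) had an unadjusted p under 0.05, against 14.9% of all genes. The libraries of the sexes did not overlap for these same 4 genes, against 20.0% of all genes. Males were above females for Acly, Gpam and Thrsp and below them for Mlxipl. After IVF 0 of the 10 had an unadjusted p under 0.05, against 14.9% of all genes, and Me1 alone did not overlap, against 21.8%. The median log2 fold change, male over female, was 0.38 in natural livers and -0.01 after IVF, against -0.02 and 0.01 over all genes. The natural median was 0.03 without the shallow libraries, 0.05 without natural female replicate 2 and 0.65 without natural female replicate 3. The natural groups serve both this contrast and the IVF contrasts, so the 2 sets of values are not independent.

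**Figure D1:**
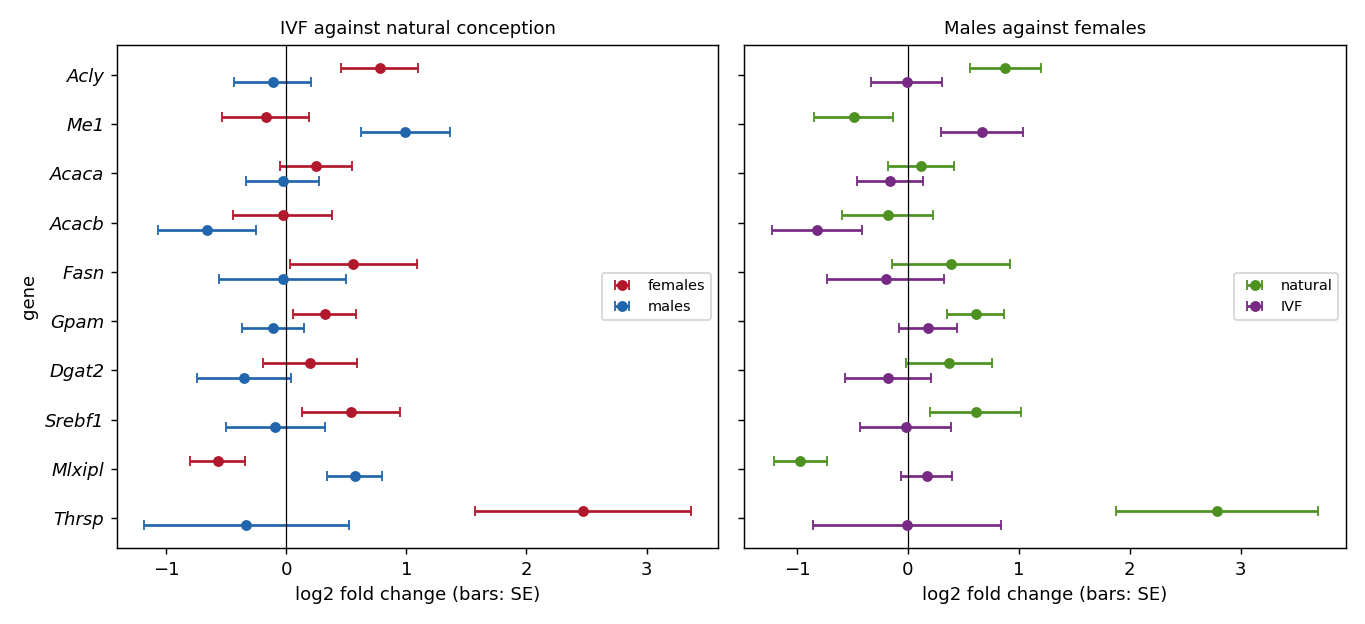
Log2 fold changes of the 10 lipogenesis genes (x axis; bars are the standard error) for IVF over natural conception in females and males (left) and for males over females after natural conception and after IVF (right). Thrsp has the widest bars, with 2.47 ± 0.90 in females, and Mlxipl lies at -0.57 in females and 0.57 in males.

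Acly and Me1 supply the building blocks. Acly encodes ATP citrate lyase, which cleaves citrate to cytosolic acetyl-CoA (GRCm38 chr11:100476353-100528000). Its level was 198, 95.0 and 225 CPM in IVF females and 93.5, 74.2 and 134 CPM in natural females. In males it was 153, 222 and 137 CPM after IVF and 180.3, 172 and 202 CPM after natural conception. The 3 natural females were all below the 3 natural males, whereas IVF females overlapped each of the other groups. The IVF difference in females was 0.78 ± 0.32 (log2, SE; edgeR unadjusted p = 0.0335, adjusted p = 1), and in males it was -0.11 ± 0.32. The female value was 0.50 without the 2 shallow libraries and 0.54 to 1.07 on leaving out 1 library. Natural males were above natural females by 0.88 ± 0.32 on the log2 scale (edgeR adjusted p = 0.225), and IVF males and females differed by -0.01 ± 0.32.

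Me1 encodes the cytosolic malic enzyme, a source of NADPH (chr9:86581371-86695953). Its level was 101, 157 and 151 CPM in IVF males and 106, 69.2 and 30.7 CPM in natural males. IVF females had 95.4, 79.6 and 82.8 CPM and natural females 79.0, 86.8 and 124 CPM. The lowest IVF male and the highest natural male overlapped, and natural male replicate 3 held the lowest level of all 12 libraries. IVF males were 1.98-fold above natural males, a log2 fold change of 0.99 ± 0.37 (edgeR unadjusted p = 0.0198, adjusted p = 1). Without natural male replicate 3 this was 0.63. In females the difference was -0.17 ± 0.36, and the interaction was 1.16 ± 0.52 (edgeR unadjusted p = 0.0447, adjusted p = 1). Among IVF animals all 3 males were above all 3 females, by 0.67 ± 0.37 (edgeR adjusted p = 0.44). Me1 shares 30 exon bases with A330041J22Rik on the opposite strand, and the use of strand in counting is not given in the sources used here.

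Acaca, Acacb and Fasn form the core of the pathway. Acaca encodes the cytosolic acetyl-CoA carboxylase that commits carbon to synthesis (chr11:84129672-84401651). Its level was 84.3, 44.0 and 66.6 CPM in IVF females, 45.6, 38.6 and 79.5 in natural females, 45.9, 63.9 and 63.9 in IVF males, and 68.3, 55.6 and 53.8 in natural males. All 4 groups overlapped. The log2 IVF difference was 0.25 ± 0.30 in females, which became -0.17 without the 2 shallow libraries, and -0.03 ± 0.30 in males, which became 0.09 with scaling by library size alone.

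Acacb encodes the carboxylase at the mitochondrial surface, whose malonyl-CoA restrains the entry of fatty acids for oxidation (chr5:114146535-114250761). Natural males had 84.9, 44.1 and 42.6 CPM and IVF males 23.9, 50.9 and 33.5 CPM. IVF females had 66.0, 37.1 and 87.6 CPM and natural females 82.9, 39.2 and 71.7 CPM. The male groups overlapped, between the upper part of the IVF range and the lower part of the natural range. Their log2 difference was -0.66 ± 0.41. It was -0.27 without natural male replicate 1 and -0.997 without IVF male replicate 2. IVF males lay below IVF females by -0.82 ± 0.41 (edgeR unadjusted p = 0.0704, adjusted p = 0.388), with overlap.

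Fasn encodes fatty acid synthase (chr11:120805846-120824547), whose promoter is printed above. It was measured at 504, 243 and 561 CPM in IVF females and 225, 101 and 563 CPM in natural females. IVF males had 290.1, 474 and 372 CPM, and natural males 310.5, 304 and 549 CPM. The highest and the lowest library of the 12 were both natural females, a 5.60-fold range within that group. The log2 IVF difference was 0.56 ± 0.53 in females and -0.03 ± 0.53 in males. The female value was 0.15 without natural female replicate 2, 1.44 without natural female replicate 3 and 0.03 without the 2 shallow libraries. In males the sign turned to 0.09 with scaling by library size alone.

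Gpam and Dgat2 stand at the start and the end of triglyceride assembly. Gpam encodes the mitochondrial glycerol-3-phosphate acyltransferase, the entry step (chr19:55067268-55127238). Natural males had 176, 179 and 170.4 CPM, the narrowest group of all, with an SD of 4.32 CPM. Natural females had 125, 74.9 and 144 CPM, IVF females 141, 129 and 159.7 CPM, and IVF males 163, 206 and 117 CPM. Every natural male was above every natural female, by 0.61 ± 0.26 on the log2 scale (edgeR unadjusted p = 0.0356, adjusted p = 0.294). Without natural female replicate 2 this was 0.38. The IVF difference was 0.32 ± 0.26 in females and -0.11 ± 0.26 in males, with overlap in both. The female value was 0.09 without natural female replicate 2 and 0.54 without natural female replicate 3, and the male value was 0.03 with scaling by library size alone.

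Dgat2 encodes a diacylglycerol acyltransferase that completes triglyceride (chr7:99153658-99182719). Its level was 189.8, 399 and 484 CPM in IVF females and 405, 190.9 and 339 CPM in natural females. It was 369, 349.7 and 227 CPM in IVF males and 513, 265 and 429 CPM in natural males. The groups overlapped in every comparison, and the log2 IVF difference was 0.20 ± 0.39 in females and -0.35 ± 0.39 in males.

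**Figure D2:**
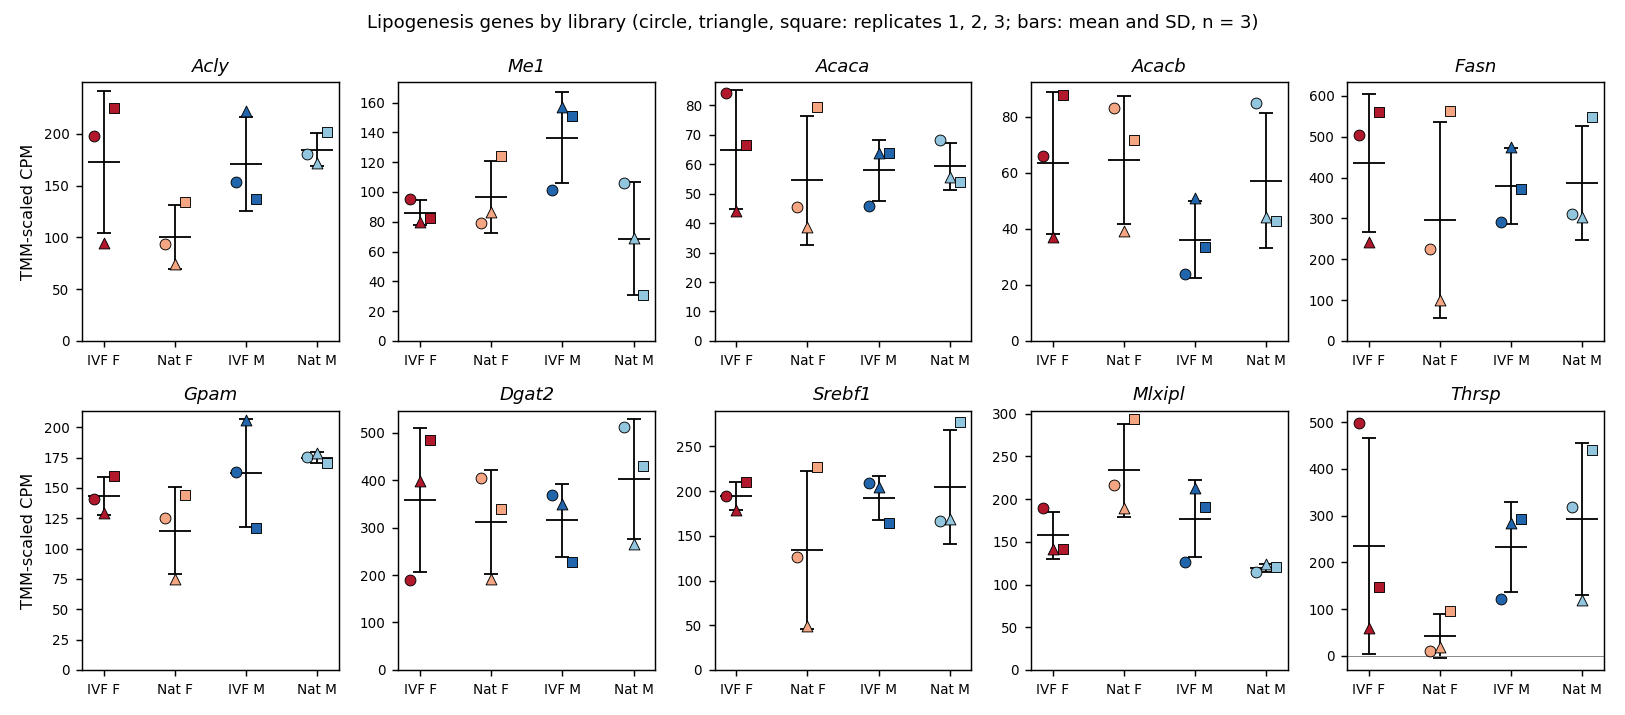
Level of each of the 10 genes in every library (y axis, TMM-scaled CPM, linear from 0) by group; symbols mark replicates 1, 2 and 3, and the bars are the mean and SD of 3 libraries. Natural females hold the lowest Fasn, Srebf1 and Thrsp libraries, at 101, 49.3 and 11.0 CPM. Mlxipl separates by conception in both sexes, by narrow gaps (189.38 against 189.95 CPM in females, 126 against 124 CPM in males).

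The regulators differed from each other in how they varied. Srebf1 encodes the SREBP-1 proteins (chr11:60199089-60222581) and was at 195, 179 and 210.0 CPM in IVF females, against 127, 49.3 and 226 CPM in natural females. IVF males had 209, 205 and 164 CPM and natural males 166, 169 and 278 CPM. Natural female replicate 2 was far below every other library, while natural female replicate 3 was above all but 1. The log2 IVF difference was 0.54 ± 0.41 in females. It was 0.14 without natural female replicate 2 and 1.16 without natural female replicate 3. In males it was -0.09 ± 0.41, or 0.05 with scaling by library size alone. Srebf1 shares 109 exon bases with Rai1 on the opposite strand. Counts per gene also do not tell the liver's main form, SREBP-1c, from SREBP-1a.

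Mlxipl encodes ChREBP (chr5:135089890-135138382), the sugar-sensing partner of MLX. It was at 189.4, 142.2 and 141.6 CPM in IVF females and at 217, 189.9 and 294 CPM in natural females. It was at 126, 213 and 191 CPM in IVF males and at 114, 124 and 120.2 CPM in natural males. IVF libraries were all below natural ones in females and all above them in males. The gaps were narrow: 189.4 against 189.9 CPM in females and 126 against 124 CPM in males. Libraries did not overlap for 7.42% of all genes in females and for 8.91% in males, and they separated in opposite directions in the 2 sexes for 78 genes, or 0.591%. The log2 IVF difference was -0.57 ± 0.23 in females (edgeR unadjusted p = 0.0324, adjusted p = 1) and 0.57 ± 0.23 in males (edgeR unadjusted p = 0.0326, adjusted p = 1). The interaction was 1.13 ± 0.33 (edgeR unadjusted p = 0.00517, adjusted p = 1), the 47th smallest p of 13204 genes. Without natural female replicate 3 the female value was -0.35.

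Mlxipl was at 119 ± 5.02 CPM in natural males and at 234 ± 54.0 CPM in natural females (mean ± SD, n = 3), a log2 difference of -0.97 ± 0.24. The edgeR adjusted p was 0.0681 and missed the threshold. DESeq2 called it (adjusted p = 0.00441), as did edgeR with scaling by library size alone (adjusted p = 0.0155) or without the 2 shallow libraries (adjusted p = 0.0407), while limma voom did not (adjusted p = 0.113). It was not called on leaving out any 1 library (edgeR adjusted p = 0.0539 to 0.226). Library size alone also moved the median over all genes by -0.312 in this contrast. After IVF the sexes overlapped, at 177 ± 45.2 CPM in males and 158 ± 27.4 CPM in females (mean ± SD, n = 3). In the male groups the hepatocyte marker sum was 79642 to 92512 CPM after IVF and 102910 to 104682 CPM after natural conception. Alb was its largest part, at 44666 to 55353 CPM after IVF and 56729 to 60852 CPM after natural conception. Of the 6 markers, 1 (Ttr) had a higher mean after IVF, at 2714 against 2355 CPM. The Kupffer cell sum was 115 to 166 CPM against 211 to 232 CPM. Their part in the Mlxipl and Me1 values was not tested. In whole liver, fewer cells of a type and less RNA per cell cannot be told apart.

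Thrsp encodes Spot 14, a small nuclear and cytosolic protein induced by thyroid hormone and carbohydrate that supports lipogenesis (chr7:97412938-97417730). It was the most variable of the 10. IVF females had 498, 59.7 and 148 CPM and natural females 11.0, 19.8 and 96.3 CPM. IVF males had 122, 284 and 292 CPM and natural males 318, 119 and 439.8 CPM. The highest library was 45.5-fold above the lowest, and both were females. The female groups overlapped, with an IVF difference of 2.47 ± 0.90 on the log2 scale, or 5.53-fold (edgeR unadjusted p = 0.0183, adjusted p = 1). It was 1.29 without IVF female replicate 1, 3.95 without natural female replicate 3 and 0.95 without the 2 shallow libraries.

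In males the Thrsp difference was -0.33 ± 0.85, and the interaction was -2.80 ± 1.23 (edgeR unadjusted p = 0.0424, adjusted p = 1). The interaction was -1.28 without the shallow libraries, -1.62 without IVF female replicate 1 and -4.28 without natural female replicate 3. All 3 natural males were above all 3 natural females, 6.89-fold by the fit, or 2.79 ± 0.91 on the log2 scale (edgeR unadjusted p = 0.0102, adjusted p = 0.175). Without natural female replicate 3 this was 4.27. The female libraries low in Thrsp, natural replicates 1 and 2, were those with high Arntl and low Per1. Dbp, an output gene of the clock, was 18.7 and 8.99 CPM in these 2 and 43.2 to 97.4 CPM in the other 10. Arntl was called lower in natural males than in natural females, by -2.57 ± 0.50 (edgeR adjusted p = 0.0244), the only one of 11 tested clock genes to be called there, while 7 of the 11 had an unadjusted p under 0.05, against 14.9% of all genes. In females, Arntl differed between IVF and natural by -1.57 ± 0.48 (edgeR unadjusted p = 0.00725, adjusted p = 1), and 5 of the 11 clock genes had an unadjusted p under 0.05, against 3.7% of all genes. The part of the clock phase in the female lipogenesis values was not tested. Of 10 fasting-response genes such as Pck1 and Pdk4, edgeR called 0 in any of the 5 contrasts. Over all genes, 1.77% were called between the sexes in natural livers and 2.19% after IVF. The share was 0.0% for IVF in females and the interaction, and 0.00757% for IVF in males. At an unadjusted p under 0.05 there were 3 for males over females in natural livers and 1 after IVF. The share of all genes was 14.9% in each. There were 0 for IVF in females, IVF in males and the interaction, against 3.7%, 2.69% and 3.87%. Natural male replicate 1 had the highest Pck1 (6071 CPM, others 863 to 3233) and Tat (3561 CPM, others 477 to 1840.5). There, Pdk4 was 10.05 CPM, within the range elsewhere (1.95 to 16.2 CPM). In females, Pck1 was 1538 to 1766.5 CPM after IVF and 863 to 1019 CPM after natural conception. G6pc went the other way, at 44.5 to 92.3 CPM and 119 to 162 CPM.

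**Figure D3:**
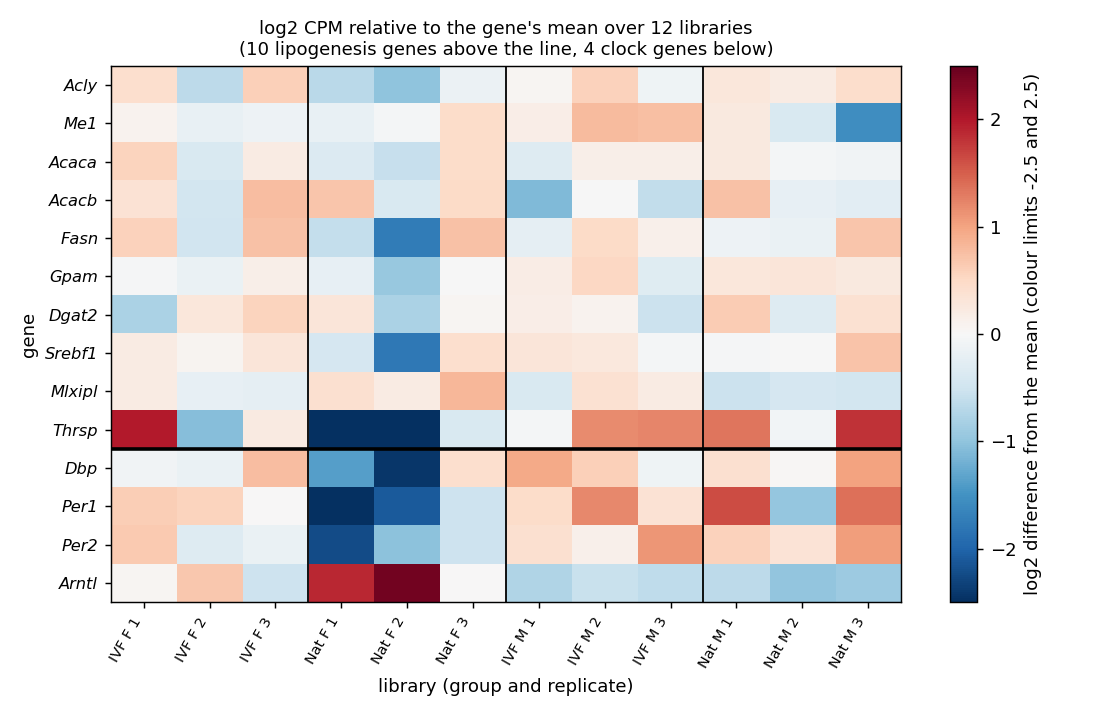
Log2 CPM of the 10 lipogenesis genes (above the line) and 4 clock genes (below it) in each library, relative to each gene's mean over the 12 libraries; values beyond -2.5 or 2.5 take the end colour. Natural female replicates 1 and 2 are blue for Thrsp (11.0 and 19.8 CPM), Dbp and Per1 and red for Arntl (15.5 and 22.2 CPM).

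Per kilobase of the longest coding transcript in GENCODE M21, Dgat2 had the highest level of the 10, with a median over the 12 libraries of 159 CPM per kb (83.9 to 227). Thrsp followed at 106 CPM per kb, but ran from 8.58 to 389.9. Mlxipl (45.8), Srebf1 (43.5), Acly (36.7), Fasn (34.0), Me1 (27.7) and Gpam (24.6) lay in a middle band, in CPM per kb, whose ranges over the libraries overlapped each other. Acaca and Acacb were lowest, at 6.28 CPM per kb (4.06 to 8.86) and 5.41 CPM per kb (2.72 to 9.97). The 2 carboxylase genes, neighbours in this order, did not separate, and the range of Acacb reached those of Me1 (from 9.32 CPM per kb) and Thrsp.

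Replicates of these genes were further apart than those of most genes. The within-group SD of log2 CPM had a median of 0.536 over the 10 genes and 0.383 over all genes tested, and 8 of the 10 were above the latter. Thrsp had the largest, 1.27, above 98.6% of all genes, and Fasn followed with 0.764, above 89.7%. Mlxipl had the smallest, 0.285, above 30.4% of all genes. By group, the median SD of the 10 genes was 0.552 in IVF females, 0.556 in natural females, 0.374 in IVF males and 0.452 in natural males, each above the median of all genes in that group (0.366, 0.413, 0.263 and 0.231).

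Fasn followed Srebf1 across libraries. Over 12 libraries, Pearson's r of their log2 CPM was 0.90 (permutation p = 0.00023, adjusted p = 0.00391 over 17 relations) and Spearman's rho was 0.78 (permutation p = 0.00433, adjusted p = 0.0736). Without the 2 libraries farthest from the median of Srebf1, natural female replicate 2 and natural male replicate 3, r was 0.73, and without the 2 shallow libraries it was 0.78. Within females r was 0.93 (exact permutation p = 0.00139) and within males 0.71 (exact permutation p = 0.125). For Acly with Srebf1, r was 0.74 (adjusted permutation p = 0.0228), rho was 0.61 (adjusted permutation p = 0.34), and r was 0.54 without the 2 farthest libraries. For Gpam with Srebf1, r was 0.82 (adjusted permutation p = 0.0439) and rho 0.50 (adjusted permutation p = 0.376). That relation rests on the 2 farthest libraries, without which r was 0.40; within females it was 0.97 (exact permutation p = 0.00556) and within males 0.31 (exact permutation p = 0.481). Acaca, Acacb, Me1, Mlxipl, Thrsp and Dgat2 did not pass adjustment with Srebf1.

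Mlxipl followed a different course. Its r with the other genes was -0.38 to 0.52, and none of its relations passed adjustment; the smallest adjusted permutation p was 0.217. The highest r was with Me1, 0.52 (permutation p = 0.0766), with 0.78 within females (exact permutation p = 0.0722) and 0.67 within males (exact permutation p = 0.132). With Fasn it was 0.05, and with Srebf1 it was -0.19.

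**Figure D4:**
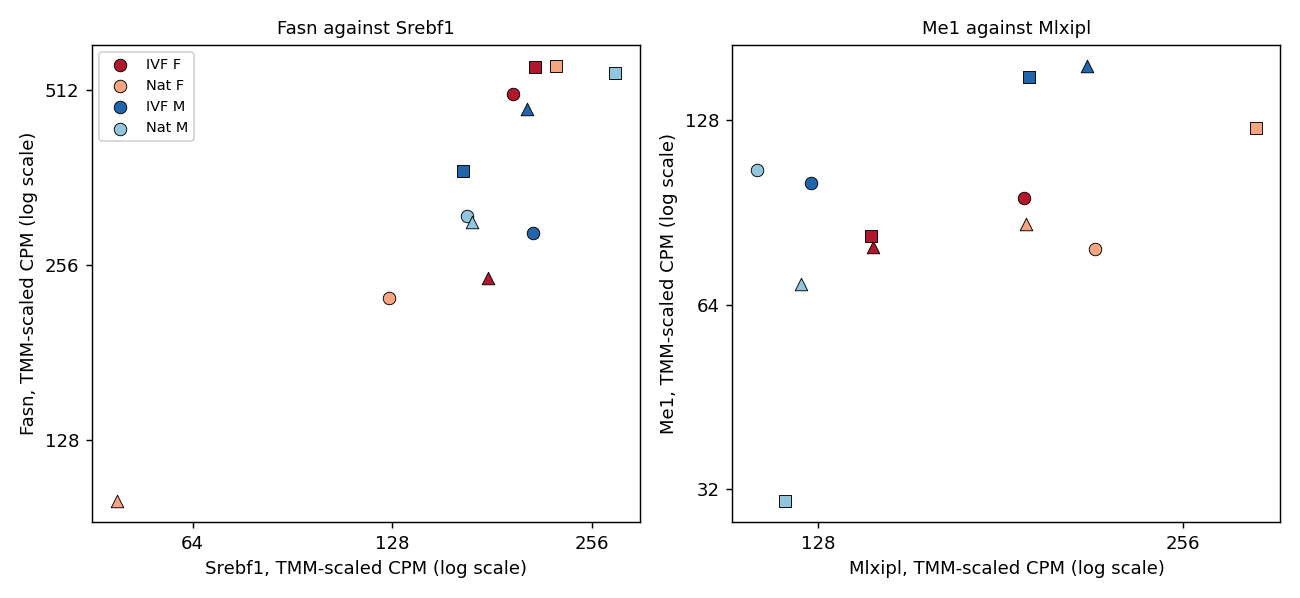
Fasn against Srebf1 (left) and Me1 against Mlxipl (right), 1 point per library, in TMM-scaled CPM on log axes; colour gives the group and the symbol the replicate. Fasn and Srebf1 line up with r = 0.90, with natural female replicate 2 at the lower left (49.3 and 101 CPM), while Me1 and Mlxipl scatter with r = 0.52.

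The mean of the 10 genes, each standardised over the libraries, was followed most closely by Fasn (r = 0.92), Acaca (0.87), Acly (0.83) and Srebf1 (0.81), with which it shares those genes. Gpam (0.78) and Thrsp (0.70) came next, then Acacb (0.48), Dgat2 (0.39), Me1 (0.24) and Mlxipl (0.09). Outside the 10, among 7353 genes averaging 10 CPM or more, the genes most like that mean over 12 libraries were Acss2 (r = 0.90), Scd2 (0.84), Cnot7 (0.83), Azin1 (0.82) and Arhgdia (0.82). Acss2 encodes the enzyme that activates acetate to acetyl-CoA, and Scd2 a fatty acid desaturase. Most like Fasn were Acss2 (0.85), Sh3bp2 (0.84), Mid1ip1 (0.83), Dbp (0.83) and Arhgdia (0.83). Mid1ip1 encodes the relative of Spot 14 that helps acetyl-CoA carboxylase to polymerise. Acss2, Scd2, Cnot7, Azin1, Arhgdia, Sh3bp2 and Dbp all had their lowest level in natural female replicate 2, and these likenesses share that library.

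Around these 10, 77 further genes in 9 groups of the pathway were examined, and all passed the filter. Of them, edgeR called 0 for IVF in females, 0 in males and 0 in the interaction, where 0.0%, 0.00757% and 0.0% of all genes were called. An unadjusted p under 0.05 was found for 4, 0 and 4 of them, against 3.7%, 2.69% and 3.87% of all genes, and DESeq2 and voom called 0 in these 3 contrasts. In females the smallest p-values belonged to Pgd, a pentose phosphate enzyme that makes NADPH, Usf2, an E-box factor, and Idh1, which also makes NADPH. Pgd was 45.3, 21.1 and 27.1 CPM after IVF and 17.4, 18.5 and 19.8 CPM after natural conception, a log2 difference of 0.74 ± 0.26 (edgeR unadjusted p = 0.014, adjusted p = 1). Usf2 had -0.48 ± 0.17 and Idh1 0.48 ± 0.18 on the same scale, each with an adjusted p of 1. The libraries of all 3 did not overlap, as for 5 of the 77 in all, against 7.42% of all genes. In males they were Pklr, the liver pyruvate kinase and a known ChREBP target, at 0.67 ± 0.31 (edgeR unadjusted p = 0.0527), Pparg at 0.65 ± 0.33 and Tkt at 0.40 ± 0.21, each with an adjusted p of 1. Their IVF libraries were all above the natural ones, and 7 of the 77 did not overlap in males, against 8.91% of all genes. In the interaction the smallest p-values belonged to Usf2, at 0.65 ± 0.24 (edgeR unadjusted p = 0.0203), the desaturase gene Fads2, at -0.83 ± 0.36, and the droplet gene Cidec, at 1.34 ± 0.59, each with an adjusted p of 1.

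By group, the NADPH suppliers had a median log2 IVF difference of 0.13 in females and -0.01 in males over 6 genes. The desaturases and elongases had 0.35 and 0.05 over 8 genes. The accessory and droplet proteins had -0.39 and 0.24 over 8 genes. The SREBP processing and insulin signal genes had 0.03 and -0.21 over 11 genes, and the other 5 groups lay between -0.11 and 0.08. Scd1, the main desaturase of the liver, ran from 83.1 CPM in IVF female replicate 2 to 6148 CPM in IVF female replicate 1, within a single group.

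Some elongation and droplet genes were called higher in males than in females, and 0 were called lower. Of the 8 desaturases and elongases, 5 were higher in males after natural conception and 4 after IVF (median log2 difference 0.24 and -0.09). Of the 8 accessory and droplet genes, 4 and 6 were higher (0.26 and 0.39). Without overlap, males lay above females for 13 of the 77 and below for 5 after natural conception. After IVF these counts were 12 and 9. Libraries did not overlap for 20.0% and 21.8% of all genes. After natural conception 2 of the 77 were called higher and 0 lower, where 0.894% and 0.879% of all genes were called. Elovl3, an elongase of very long fatty acids, was 2.05 to 12.3 CPM in the 6 females and 31.1 to 146 CPM in the 6 males. It was higher in males by 3.68 ± 0.67 on the log2 scale after natural conception (edgeR adjusted p = 0.0178) and by 4.47 ± 0.70 after IVF (edgeR adjusted p = 0.00566). The interaction for Elovl3 was 0.79 ± 0.88 (edgeR unadjusted p = 0.385). The natural call was lost without the 2 shallow libraries (adjusted p = 0.06) and without natural female replicate 1, natural female replicate 2 or natural male replicate 3 (0.051 to 0.0641).

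Hsd17b12, the ketoacyl reductase of the elongation cycle, was 2.05-fold higher in natural males (1.04 ± 0.22, edgeR adjusted p = 0.0338). That call was lost on leaving out any 1 of 9 libraries (all but IVF female replicates 1 and 3 and natural male replicate 3; adjusted p up to 0.124), with scaling by library size alone (adjusted p = 0.0951), without the shallow libraries (0.0503) and in a fit to the 6 natural libraries (0.133). After IVF 3 of the 77 were called higher and 0 lower, where 0.909% and 1.28% of all genes were called. These were Elovl3, Fitm1 and Cidec. Fitm1, a protein of lipid droplet formation, was 0.374 to 3.01 CPM in females and 12.1 to 39.9 CPM in males, 16.4-fold higher after IVF (4.04 ± 0.65, edgeR adjusted p = 0.00671), and 2.69 ± 0.61 in natural livers (edgeR adjusted p = 0.0524). In natural livers Fitm1 was called by DESeq2 (adjusted p = 0.000468), by voom (0.0465), with DESeq2's size factors (0.0496), with no filter (0.0376), in a fit to the 6 natural libraries (0.0307) and without IVF female replicate 2 or 3 (0.0267 and 0.0287). It was not called on leaving out any other library (edgeR adjusted p up to 0.141) or in the remaining settings (up to 0.105). Cidec, which enlarges droplets, was 0.831 to 1.20 CPM in IVF females and 3.05 to 5.22 CPM in IVF males (1.93 ± 0.43, edgeR adjusted p = 0.0424). The Cidec call was lost on leaving out any 1 of 10 libraries (all but natural female replicate 2 and natural male replicate 1; adjusted p up to 0.175), with scaling by library size alone (0.0664) and without the shallow libraries (0.0532).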

How the data were processed

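Liver poly-A libraries of 12 mice were made with a KAPA mRNA-Seq kit and sequenced on a NextSeq instrument, per the labels' protocols. The deposited values were raw read counts per gene symbol as the authors made them, with a column for each library. The submitters' processing notes name Trimmomatic 0.32, STAR 2.3.0e, featureCounts 1.5.0 and mm10. Which annotation was used, and how strand and multi-mapped reads were handled, is not given in the sources used here. Of 24527 symbols, 5498 had no count.

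Columns were assigned by titles, and replicate numbers, given in accession order, pair no samples. edgeR 4.0.16 (R 4.3.3) was run on the counts with filterByExpr by group, TMM and 1 quasi-likelihood model with a mean for each of 4 groups over all 12 libraries. The 5 contrasts were IVF over natural in each sex, their difference, and male over female in each mode of conception, with Benjamini-Hochberg adjustment over 13204 genes. Standard errors were derived from the F statistic of each test. Correlations used log2 CPM with a prior count of 2 and two-sided permutation tests with 100000 resamples, or exact ones within a sex. DESeq2 1.42.0, limma 3.58.1 (voom), another scaling or filter, fits to the 6 libraries compared, leaving out the 2 shallowest libraries and leaving out each library were tried. The share of all genes that voom called was not counted, so its counts of calls have no such comparison. The code was tested on simulated data.

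All 10 genes were named; of the 77 pathway genes, any that was called and the 3 of smallest p per contrast; and the 5 genes most like the 10 genes' mean and most like Fasn. Scd1 and the clock genes given by library were chosen after their values were seen. The 10 genes and all lists were chosen with earlier results of these data known. Positions and transcript lengths are from GENCODE M21 (GRCm38).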

Additional observations from a re-analysis of the deposited data

Results flagged for a closer look

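Mlxipl, which encodes ChREBP, had an IVF effect of -0.57 in females and of 0.57 in males (log2, IVF over natural). It stands out because all 3 IVF libraries lay below all 3 natural libraries in females and above them in males. Of all 13204 genes, 78 (0.591%) separated in opposite directions in this way. The gaps were narrow: 189.38 against 189.95 CPM in females, and 126 against 124 CPM in males. The interaction was 1.13 ± 0.33 in the edgeR model, with an unadjusted p of 0.00517 and an adjusted p of 1, so a difference between the sexes was not shown. Leaving out single libraries gave interactions of 0.91 to 1.33, with adjusted p-values of 0.907 or more, and the other settings gave 1.07 to 1.40, with 0.382 or more.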

How the results depend on the processing

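Under 20 settings, 12 of which left out 1 library, 940 of 990 recomputed log2 fold changes of the 10 genes kept their direction and their side of the threshold. None was lost from a call, since none had been called, and 47 changed sign, in 21 of 50 gene and contrast pairs; the values so reversed had been at most 0.388 in size before. The causes were not tested. IVF female replicate 1 and natural female replicate 2 were the shallowest libraries, and leaving out the deeper natural female replicate 3 moved female values as well (Fasn to 1.436 and Srebf1 to 1.162 for IVF). For males over females in natural livers, 0 of the 10 genes were called, also on leaving out any 1 library. The count was 1 (Mlxipl) with library size alone, with DESeq2 and without the 2 shallow libraries. Of the 77 pathway genes, 2 were called in that contrast, against 1 with library size alone, 5 with DESeq2 and 0 without the shallow libraries. Leaving out 1 library gave 0 to 3.

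Library size alone moved the median over all genes, in log2, by 0.133 for IVF in males, 0.202 in the interaction, -0.312 for males over females in natural livers and -0.110 after IVF. In males it turned the IVF values of Fasn (0.085), Acaca (0.088), Acly (0.019), Srebf1 (0.048) and Gpam (0.031), and in natural livers the sex difference of Acaca (-0.227). Leaving out the shallow libraries turned Acaca for IVF in females (-0.17) and in the interaction (0.134), Fasn (-0.046) and Acaca (-0.097) between the sexes in natural livers, and Acaca (0.037), Acly (0.067) and Thrsp (1.141) between the sexes after IVF. In that last contrast voom turned Acly (0.036) and Thrsp (0.343), and no filter turned Thrsp (0.016).

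Leaving out 1 library gave ranges that cross 0 for the following. For IVF in females they were -0.335 to 0.248 for Acacb, -0.295 to 0.072 for Me1 and -0.081 to 0.523 for Dgat2. For IVF in males they were -0.229 to 0.301 for Fasn, -0.112 to 0.108 for Acaca, -0.35 to 0.022 for Acly, -0.217 to 0.197 for Srebf1, -0.707 to 0.09 for Thrsp and -0.321 to 0.076 for Gpam. Between the sexes in natural livers they were -0.02 to 1.255 for Fasn, -0.075 to 0.496 for Acaca and -0.575 to 0.047 for Acacb. After IVF they were -0.491 to 0.025 for Fasn, -0.379 to 0.036 for Acaca, -0.307 to 0.228 for Acly, -0.076 to 0.09 for Srebf1, -0.466 to 1.141 for Thrsp, -0.03 to 0.368 for Gpam and -0.519 to 0.098 for Dgat2. No paired analysis was possible because the replicate numbers only follow the order of accessions and the meaning of the numbers in the titles is not given.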

Other observations

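Scd1, which encodes the main desaturase of the liver, was at 6148, 83.1 and 1617 CPM in IVF females and at 575, 333 and 2856 CPM in natural females. It was at 2139, 3247 and 3022 CPM in IVF males and at 3042, 585 and 1980 CPM in natural males. The female libraries held both the highest and the lowest Scd1 level of the 12, 73.9-fold apart, and the log2 IVF difference was 1.06 ± 1.12 in females and 0.58 ± 1.11 in males, each with an edgeR adjusted p of 1.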
